A study of Mus musculus with 6 samples.

Results

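The heat shock proteins and chaperones of the injured mouse spinal cord were taken from the deposited count table as every protein-coding gene named as an HSP70, HSP90, HSP110, small heat shock protein, mitochondrial chaperonin or J-domain (DNAJ) protein, by the patterns Hspa, Hspb, Hspd1, Hspe1, Hsph1, Hsp90 and Dnaja, Dnajb or Dnajc. They number 72 of the 54532 genes in the table: 11 HSP70, 3 HSP110, 3 HSP90, 8 small HSP and 2 chaperonin genes, and 4 DNAJA, 13 DNAJB and 28 DNAJC genes. Another 14 rows that carry such names are processed pseudogenes and were not counted as members. All 6 libraries were made from injured spinal cord of the strain C57BL/6J. Of these, 3 came from mice given rotarod training, in which the animal walks on a turning rod, and 3 from mice without training, and every library is labelled day 28 after training. The labels give neither the injury model and level nor age or sex, both groups carry the injury, and no uninjured cord is among the samples. Because the labels do not say that each library is a separate mouse, p-values reflect only how these libraries vary, and that variation could be technical.

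Chaperones bind unfolded or partly folded proteins. HSP70 proteins cycle between ATP- and ADP-bound states on their clients: J-domain proteins of the DNAJ families bring clients and start ATP hydrolysis, and HSP110 proteins help to exchange the nucleotide. HSP90 finishes or holds kinases, steroid receptors and other clients, small HSPs hold misfolded proteins without ATP, and the HSP60 and HSP10 chaperonin folds proteins in the mitochondrial matrix. Some members are made at all times and others are transcribed on demand, those of the cytosol by heat shock factors and those of the endoplasmic reticulum (ER) by the unfolded protein response. Long-lived cells with long processes, such as motor neurons, are known to depend on these proteins.

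Regulatory sequences of these 2 arms are shown for some of the members described below whose promoter windows hold a heat shock element or an ER stress element. Other members described below, such as Hsph1 and Hspb8, hold a heat shock element that is not printed. They come from RefSeq promoter windows on GRCm38.p6, which run from 250 bases before to 50 bases after a start site and cover 58 of the 72 members. Capitals mark the matched motif, each stretch reads 5′ to 3′ on the strand of its gene, and positions count from the start site. Hspa1a has 1 heat shock element 104 bases before its start on the minus strand (chr17:34972203-34972310), and the same 108 bases stand before Hspa1b (chr17:34959285-34959392). Hspb1 (chr5:135887782-135887849) and Hspe1 (chr1:55088053-55088082) are on the plus strand, and the stretch of Hspe1 overlaps an annotated exon of its divergent neighbour Hspd1. Hspa5 (chr2:34772020-34772048) and Dnajc3 (chr14:118937807-118937865) on the plus strand and Hsp90b1 on the minus strand (chr10:86705513-86705676) hold the ER stress element, and the stretch of Hspa5 overlaps an annotated exon of Hspa5 itself.
Hspa1a and Hspa1b: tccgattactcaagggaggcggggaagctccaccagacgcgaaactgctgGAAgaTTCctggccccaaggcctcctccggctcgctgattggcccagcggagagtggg
Hspb1: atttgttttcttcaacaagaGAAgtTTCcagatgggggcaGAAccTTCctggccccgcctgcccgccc
Hspe1: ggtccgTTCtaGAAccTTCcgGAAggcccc
Hspa5: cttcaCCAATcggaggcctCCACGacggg
Dnajc3: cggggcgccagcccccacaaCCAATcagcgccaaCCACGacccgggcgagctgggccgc
Hsp90b1: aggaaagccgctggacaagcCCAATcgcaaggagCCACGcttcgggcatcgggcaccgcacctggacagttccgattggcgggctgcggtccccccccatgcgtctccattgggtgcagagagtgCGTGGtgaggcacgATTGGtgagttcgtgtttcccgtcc

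The heat shock element was searched on both strands as alternating GAA units, with 2 units as GAANNTTC or TTCNNGAA and 3 units as GAANNTTCNNGAA or TTCNNGAANNTTC, so that each 3-unit match also holds 2-unit matches. The 3-unit form stood in 4 of the 58 members (Dnajb6, Hspd1, Hspe1 and Hsph1), against 0.662% of all 27025 genes with a window. The matches of Hspd1 and Hspe1 are the same bases of their shared promoter, read on opposite strands. The 2-unit form stood in 16 of the 58 members and in 17.0% of all genes. Of the 10 members listed as heat-inducible, Dnajb1 and Hspa4l had no match in their windows, and Hsp90aa1 was not among the genes searched. The ER stress element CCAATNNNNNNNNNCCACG stood in 3 members (Dnajc3, Hsp90b1 and Hspa5), with 2 matches in Hsp90b1, and in 0.137% of all genes. The shorter CCAAT, which every ER stress element contains, stood in 25 of the 58 members and in 41.1% of all genes. These matches describe letters in a window and say nothing of binding in this tissue.

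No chaperone transcript differed between trained and untrained cord past the test. Of the 72 members, 65 had enough counts to be tested with edgeR's quasi-likelihood test (adjusted over all 16909 genes tested, threshold 0.05), and 0 passed in either direction. Over all genes 10 passed (0.0591%), 1 higher (0.00591%) and 9 lower (0.0532%) in trained cord. DESeq2, which gave 8 members no adjusted p, and limma-voom also called 0 members. At an unadjusted edgeR p below 0.05, 2 members lay higher (Hspa1a and Dnajc24) and 2 lower (Dnajc3 and Dnajb14) in trained cord, out of 65, against 10.0% of all genes tested, 4.47% higher and 5.55% lower.

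Most members were measured closely enough to bound a difference. The 95% interval of the fold change lay within 1.5-fold in either direction in 58 of the 65 members tested, against 66.3% of all genes tested. The 7 whose interval reached past 1.5-fold were Dnajb13, Dnajb3, Hspa1a, Hspa1l, Hspb11, Hspb2 and Hspb7, each at 8.65 CPM or less in every library (CPM, counts scaled to a common library total). The median log2 fold change (trained over untrained) was -0.037 over the 65 members, with 28 positive and 37 negative. Over all genes tested it was -0.0080, with 8123 positive and 8786 negative. The median absolute log2 fold change was 0.079 for the members and 0.118 for all genes, and the median SE was 0.093 and 0.122. The libraries of the 2 groups did not overlap in 8 of the 65 members, 4 higher (Hspa1a, Dnajc24, Dnajc4 and Dnajc30) and 4 lower (Dnajc3, Hspa12a, Dnajc14 and Dnajb4) in trained cord, against 16.8% of all genes tested, 8.13% higher and 8.69% lower.

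**Figure D1:**
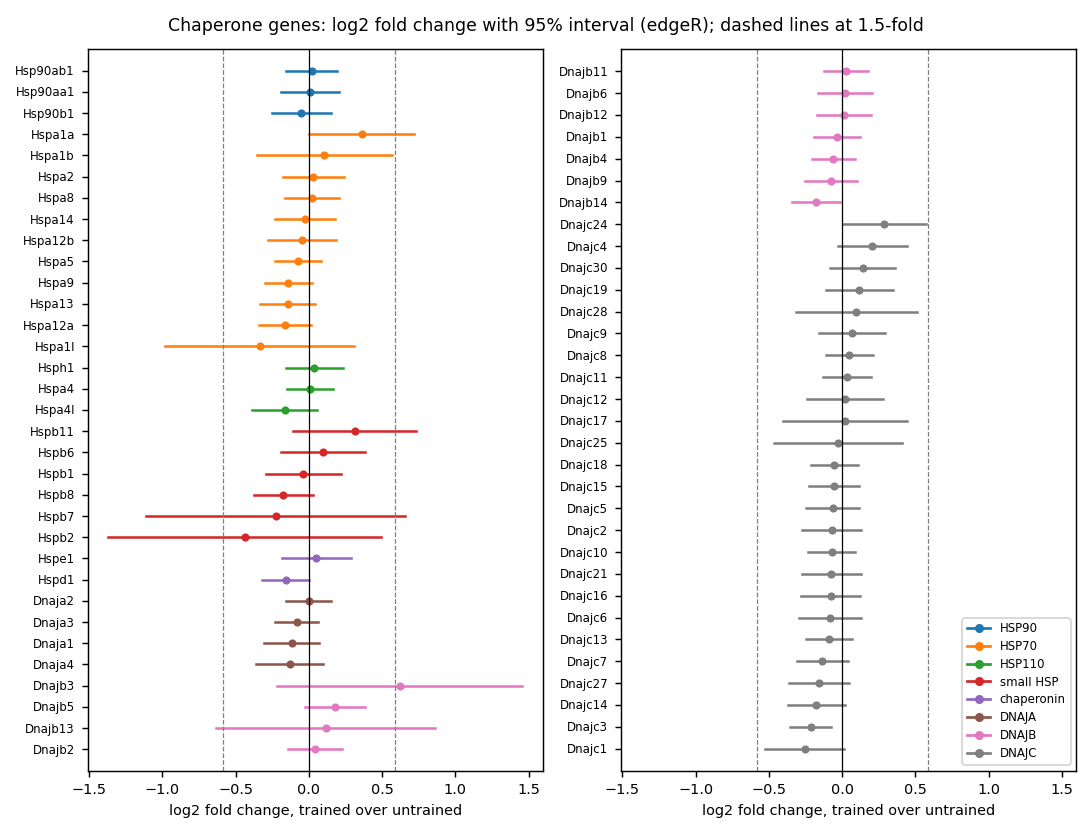
Log2 fold change, trained over untrained, of the 65 chaperone genes tested (points) with its 95% interval (lines) from edgeR, coloured by chaperone class. The dashed lines stand at 1.5-fold, and 58 of the 65 intervals lie between them.

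The 3 most abundant chaperone transcripts were cytosolic HSP90 and HSP70 members. Levels are compared between genes per length, in TPM (counts per kilobase of the gene length in the table, scaled to the same total in each library). In 68 of the 72 members that length is that of all annotated exons merged, and the order of genes and classes depends on it. By CPM, without length, Hspa8 lay above Hsp90ab1, at 1717 against 1408 CPM in trained and 1693 against 1390 CPM in untrained cord. Hsp90ab1, the constitutive cytosolic HSP90, was highest at 1468 TPM over all 6 libraries, 19.5% of the summed TPM of the 72 members. Hspa8, the constitutive cytosolic HSP70 (Hsc70), had 1248 TPM (16.6%) and Hsp90aa1, the inducible cytosolic HSP90, 918 TPM (12.2%). The next in order were the small heat shock protein gene Hspb1 at 365 TPM and Hspd1, the mitochondrial HSP60, at 213 TPM. By class, HSP90 genes held 33.9% of the summed TPM, HSP70 genes 24.8%, DNAJC genes 15.1%, small HSPs 7.145%, DNAJB genes 6.085%, DNAJA genes 4.652%, the chaperonin pair 4.438% and HSP110 genes 3.889%.

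Per length, Hsp90ab1, Hspa8 and Hsp90aa1 stood in this order in each of the 6 libraries. Hsp90ab1 averaged 1471 ± 52.6 TPM in trained and 1465 ± 51.4 TPM in untrained cord (mean ± SD, n = 3 each, as throughout). Hspa8 averaged 1251 ± 86.4 TPM in trained and 1245 ± 49.2 TPM in untrained cord, and its libraries did not overlap with those of Hsp90ab1 in either group. Neighbours further down were closer. Hspa9, the mitochondrial HSP70, averaged 182 ± 9.47 TPM in trained and 203 ± 6.90 TPM in untrained cord, and Hspa5, the ER HSP70 (BiP), 178 ± 12.1 TPM in trained and 189 ± 2.32 TPM in untrained cord. These 2 genes overlapped in trained and not in untrained libraries. For Hspa9 the log2 fold change between groups was -0.14 ± 0.074 (edgeR adjusted p = 0.544).

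**Figure D2:**
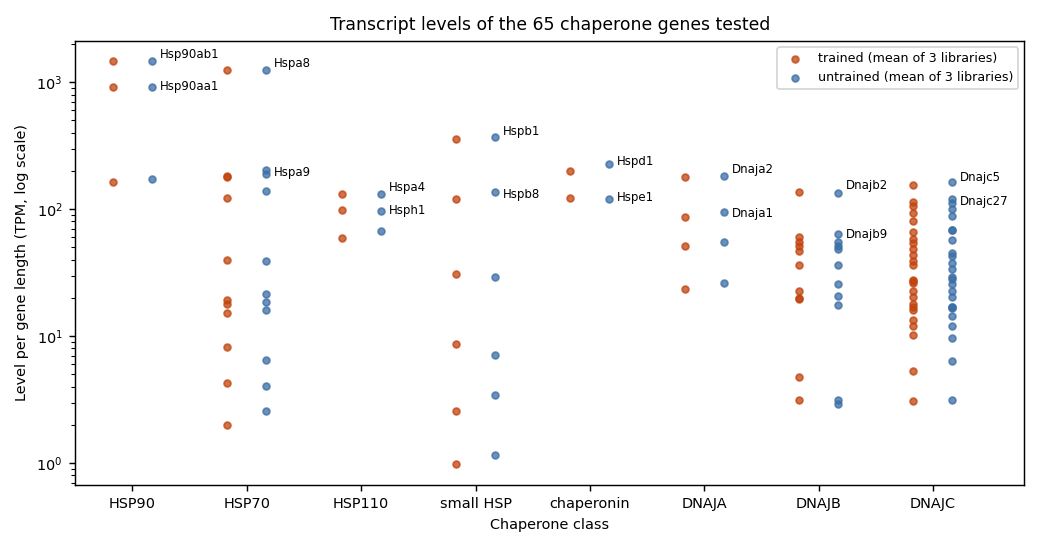
Level per gene length (TPM, log axis) of the 65 chaperone genes tested, by class, as the mean of the 3 trained and of the 3 untrained libraries, with the 2 highest genes of each class labelled. Hsp90ab1, at 1468 TPM over all libraries, and Hspa8, at 1248 TPM, stand highest in both groups.

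The constitutive cytosolic chaperones differed by less than the spread between libraries. Hsp90ab1 (chr17:45567775-45573271, minus strand, coordinates on GRCm38) had 1441, 1410 and 1373 CPM in trained replicates 1 to 3, against 1296, 1432 and 1441 CPM in untrained replicates 1 to 3. Hspa8 (chr9:40800984-40810087, plus strand) had 1778, 1778 and 1596 CPM in trained replicates, against 1582, 1719 and 1779 CPM in untrained replicates. Both ranges overlapped almost completely. The log2 fold change was 0.019 ± 0.080 for Hsp90ab1 and 0.020 ± 0.085 for Hspa8 (± SE), with an edgeR adjusted p of 0.959 for each. The 95% interval ran from -0.15 to 0.19 for Hsp90ab1 and from -0.16 to 0.20 for Hspa8. Of the 150-base windows of Hspa8 transcripts, 20.27% also occur in another gene, Gm26825, so part of its count could be split, while Hsp90ab1 shares none.

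Among HSP70 genes, the strictly inducible Hspa1a, which encodes the stress HSP70 of the cytosol, stood at low levels and higher in each trained library. Hspa1a (chr17:34969190-34972156, minus strand) had 7.05, 8.65 and 7.63 CPM in trained replicates, against 6.39, 6.37 and 5.37 CPM in untrained replicates. The groups did not overlap, but the log2 fold change of 0.36 ± 0.17 (95% interval 0.0012 to 0.72) had an edgeR adjusted p of 0.497. Its near-identical neighbour Hspa1b (chr17:34956436-34959238, minus strand) had 4.30, 3.58 and 3.54 CPM in trained replicates, against 3.88, 3.06 and 3.71 CPM in untrained replicates. These overlapped, with a log2 fold change of 0.11 ± 0.21 (edgeR adjusted p = 0.907). Between these 2 genes 38.11% of the windows of Hspa1a and 40.47% of those of Hspa1b are the same, and 296 of the 300 bases of their promoter windows are identical, so how reads were divided between them is uncertain. Per length, Hspa1a stood at 0.575, 0.705 and 0.693% of Hspa8 in trained and at 0.586, 0.537 and 0.437% in untrained replicates, which overlap.

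The other HSP70 genes gave 0 edgeR calls, and 0 at an unadjusted p below 0.05, against 0.0591% and 10.0% of all genes tested. Over all 11 HSP70 genes, Hspa1a and Hspa1b included, the class median log2 fold change was -0.047, with 4 positive and 7 negative. The median ranged from -0.099 without trained replicate 2 to -0.0025 without trained replicate 3. Hspa12a, a distant member of the family chosen here after its values were seen, had 235, 242 and 201 CPM in trained replicates, against 242, 254 and 263 CPM in untrained replicates. These did not overlap, by a narrow margin between trained replicate 2 and untrained replicate 1, and the log2 fold change was -0.16 ± 0.082 (edgeR adjusted p = 0.523). Hspa2, Hspa13, Hspa14, Hspa12b and Hspa1l overlapped between groups, and 70.21% of the windows of Hspa1l lie in Gm10501 too.

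HSP110 genes, whose products exchange the nucleotide of HSP70, and the inducible Hsp90aa1 overlapped between groups. Hsp90aa1 (chr12:110690605-110702728, minus strand) had 1202, 1212 and 1033 CPM in trained replicates, against 1040, 1196 and 1196 CPM in untrained replicates. Hsph1 had 246, 240 and 195 CPM in trained replicates, against 211, 226 and 228 CPM in untrained replicates. Trained replicate 3 was the lowest library for both, and also for Hspa4 and for Hspa4l, which had 240, 243 and 192 CPM in trained replicates, against 240, 235 and 281 CPM in untrained replicates. The log2 fold changes were 0.0062 ± 0.092 for Hsp90aa1, 0.036 ± 0.090 for Hsph1, 0.0098 ± 0.073 for Hspa4 and -0.16 ± 0.10 for Hspa4l, with edgeR adjusted p-values of 0.990, 0.928, 0.977 and 0.621. Per length, Hsp90aa1 stood at 63.6, 65.6 and 57.4% of Hsp90ab1 in trained and at 61.2, 63.7 and 63.3% in untrained replicates. Of the windows of Hsp90aa1, 23.63% also occur in Gm12346.

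**Figure D3:**
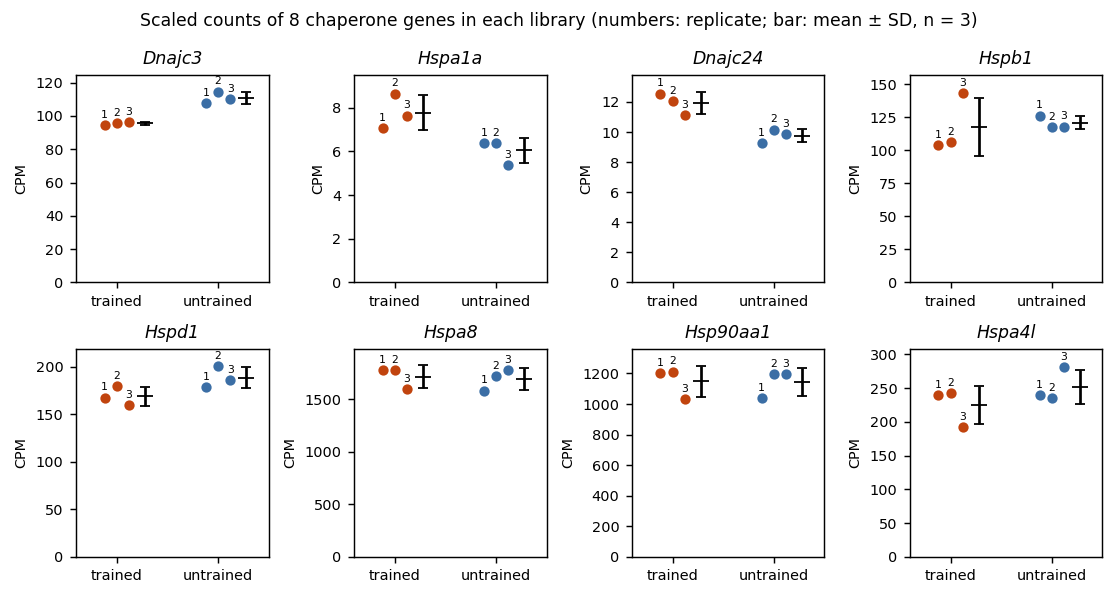
Scaled counts (CPM, axes from 0) of 8 chaperone genes in each trained and untrained library, numbered by replicate, with mean ± SD (n = 3 each). Dnajc3, Hspa1a and Dnajc24 do not overlap between groups, while Hspb1 is highest and Hspa8 lowest among trained libraries in replicate 3.

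Small heat shock proteins, which astrocytes, muscle and vessel walls also make in quantity, were not alike in their spread. By SD in CPM, Hspb1, Hspb8 and Hspb6 varied more among trained than untrained libraries, and Hspb11, Hspb2 and Hspb7 less. Hspb1 (chr5:135887919-135889563, plus strand), the mouse HSP25, had 104, 106 and 143 CPM in trained replicates, against 127, 118 and 118 CPM in untrained replicates. Hspb8, which works with BAG3 in clearing misfolded proteins, had 74.6, 64.8 and 84.8 CPM in trained replicates, against 90.2, 82.8 and 80.0 CPM in untrained replicates. Trained replicate 3 was the highest trained library for both genes and for Hspb6, at 28.1 CPM. The log2 fold change was -0.037 ± 0.12 for Hspb1 and -0.17 ± 0.094 for Hspb8 (edgeR adjusted p = 0.946 and 0.549). The class median was -0.11 over 6 genes tested (-0.22 without trained replicate 3 and 0.020 without untrained replicate 1). It was -0.17 over 5 without Hspb11, which carries the name but encodes the intraflagellar transport protein IFT25. Both medians include Hspb2 (-0.44 ± 0.43) and Hspb7 (-0.23 ± 0.41), which averaged below 1 CPM in each group. With a minimum of 1 CPM in 3 libraries the class median was -0.037. Hspb3 and Hspb9 were too low to test, at 0.437 CPM or less in every library, while 3 counts correspond to 0.115 to 0.190 CPM. Of the windows of Hspb1, 39.13% also occur in the pseudogene Hsp25-ps1.

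In the mitochondrial chaperonin, Hspd1 (HSP60) and Hspe1 (HSP10) are transcribed head to head. Hspd1 (chr1:55077835-55088243, minus strand) had 167, 179 and 159 CPM in trained replicates, against 178, 200 and 186 CPM in untrained replicates. Hspe1 (chr1:55088132-55091307, plus strand) had 58.2, 56.9 and 58.7 CPM in trained replicates, against 46.9, 66.2 and 54.9 CPM in untrained replicates. The trained libraries of Hspe1 lay within the range of the untrained ones, and those of Hspd1 overlapped with them only at trained replicate 2. The log2 fold change was -0.16 ± 0.075 for Hspd1 and 0.051 ± 0.11 for Hspe1 (edgeR adjusted p = 0.508 and 0.913). Per length, Hspe1 stood at 62.4, 57.0 and 66.0% of Hspd1 in trained and at 47.1, 59.2 and 53.0% in untrained replicates. The mitochondrial list of 8 genes, which adds Hspa9, Dnaja3, Dnajc11, Dnajc15, Dnajc19 and Dnajc30, had a median of -0.013 and 4 genes in each direction. It had 0 edgeR calls and 0 genes at an unadjusted p below 0.05, against 0.0591% and 10.0% of all genes tested.

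Of the ER chaperones, Dnajc3 had the smallest p of all members. It encodes an ER J-domain protein (p58IPK) that works with BiP, and its promoter holds the ER stress element shown above. Dnajc3 (chr14:118937976-118981697, plus strand) had 94.4, 95.7 and 96.3 CPM in trained replicates, against 108, 115 and 110 CPM in untrained replicates. The 3 trained libraries lay close together and under all untrained ones, at 95.5 ± 0.960 CPM for trained against 111 ± 3.47 CPM for untrained cord. The log2 fold change was -0.21 ± 0.065 (95% interval -0.355 to -0.075), at an unadjusted p of 0.00566 and an edgeR adjusted p of 0.317 over all genes. It thus did not pass the test.

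The other promoters with an ER stress element belong to Hspa5 and Hsp90b1 (GRP94), the ER forms of HSP70 and HSP90. Hspa5 had 246, 252 and 224 CPM in trained replicates, against 246, 261 and 252 CPM in untrained replicates. Hsp90b1 had 216, 211 and 209 CPM in trained replicates, against 188, 249 and 224 CPM in untrained replicates. Both overlapped between groups, with log2 fold changes of -0.073 ± 0.073 and -0.053 ± 0.093 (edgeR adjusted p = 0.781 and 0.890). The ER J-domain genes Dnajb9 and Dnajb11 gave -0.077 ± 0.082 and 0.026 ± 0.069 (edgeR adjusted p = 0.797 and 0.931). The ER list of 8 members, which adds Hspa13, Dnajc1 and Dnajc10, had a median of -0.075, with 1 positive and 7 negative. Over all genes tested 8123 were positive and 8786 negative. The list had 0 edgeR calls and 1 gene (Dnajc3) at an unadjusted p below 0.05, against 0.0591% and 10.0% of all genes tested.

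J-domain proteins choose the clients and the sites at which HSP70 works, and the DNAJC family is the most varied. DNAJA genes had a median log2 fold change of -0.10 (4 of 4 negative, Dnaja2 at -0.00053 ± 0.071, where the sign turns with the scaling; median -0.14 without untrained replicate 1 and -0.039 without untrained replicate 2), DNAJB genes of 0.020 (11 tested) and DNAJC genes of -0.056 (25 tested, 10 positive and 15 negative). Dnajb1, the heat-inducible HSP40, had 47.9, 47.2 and 47.5 CPM in trained replicates, against 51.4, 47.0 and 47.7 CPM in untrained replicates, and Dnaja1 had 252, 235 and 231 CPM in trained replicates, against 236, 294 and 249 CPM in untrained replicates. Both overlapped, at log2 fold changes of -0.034 ± 0.073 and -0.12 ± 0.088 (edgeR adjusted p = 0.914 and 0.689). Over the 10 heat-inducible cytosolic members the median was -0.036, with 4 positive and 6 negative.

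Dnajc24, a J-domain protein needed to make diphthamide on elongation factor 2, had 12.5, 12.04 and 11.1 CPM in trained replicates, against 9.29, 10.2 and 9.84 CPM in untrained replicates (chr2:105966709-106003549, minus strand). The groups did not overlap, and the log2 fold change was 0.29 ± 0.13 (95% interval 0.0068 to 0.57, edgeR adjusted p = 0.493). Dnajb14, an ER-membrane J-domain protein named here after its values were seen, had 123, 113 and 107 CPM in trained replicates, against 122, 132 and 133 CPM in untrained replicates. Its groups overlapped at trained replicate 1 and untrained replicate 1, with a log2 fold change of -0.18 ± 0.075 (edgeR adjusted p = 0.453). The remaining members without overlap, likewise named after their values were seen, were Dnajc4 at 0.21 ± 0.11, Dnajc30 at 0.14 ± 0.10, Dnajc14 at -0.18 ± 0.091 and Dnajb4 at -0.060 ± 0.068 on the log2 scale. For these 4 the edgeR adjusted p was 0.542, 0.685, 0.536 and 0.812.

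The 3 J-domain genes of clathrin and synaptic vesicles had unequal levels, at 159 TPM for Dnajc5, 96.8 TPM for Dnajc6 and 13.95 TPM for Dnajc13 over all libraries. Dnajc5, the cysteine string protein of synaptic vesicles, had 372, 346 and 308 CPM in trained replicates, against 340, 361 and 373 CPM in untrained replicates. Dnajc6, the neuronal auxilin that uncoats clathrin vesicles, had 192, 186 and 151 CPM in trained replicates, against 176, 178 and 206 CPM in untrained replicates. Trained replicate 3 was lowest for both, as it was for Dnajc27 at 148 CPM. Dnajc13, which acts in endosomal sorting, had 52.6, 49.0 and 52.0 CPM in trained replicates, against 56.4, 52.1 and 55.0 CPM in untrained replicates, with overlap (log2 fold change -0.090 ± 0.072, edgeR adjusted p = 0.718). Log2 fold changes were -0.064 ± 0.084 for Dnajc5, -0.081 ± 0.098 for Dnajc6 and -0.16 ± 0.094 for Dnajc27 (edgeR adjusted p = 0.834, 0.821 and 0.607). Dnajb2, a J-domain protein enriched in neurons, gave 0.043 ± 0.085 (edgeR adjusted p = 0.905).

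Variation among libraries was shared by many members. Trained replicate 3 was the lowest of the 6 libraries in 23 of the 65 members tested (35.4%), and in 21.1% of all genes tested. Untrained replicate 2 was the highest in 22 members (33.8%), and in 17.8% of all genes tested. By class, trained replicate 3 was lowest in 3 of 3 HSP110, 2 of 4 DNAJA, 1 of 2 chaperonin and 5 of 11 HSP70 genes. The counts were 9 of 25 for DNAJC, 1 of 3 for HSP90, 2 of 11 for DNAJB and 0 of 6 for small HSP genes. Summed over the 72 members, scaled counts were 9712, 9562 and 8832 CPM in trained replicates, against 9019, 9860 and 9833 CPM in untrained replicates.

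**Figure D4:**
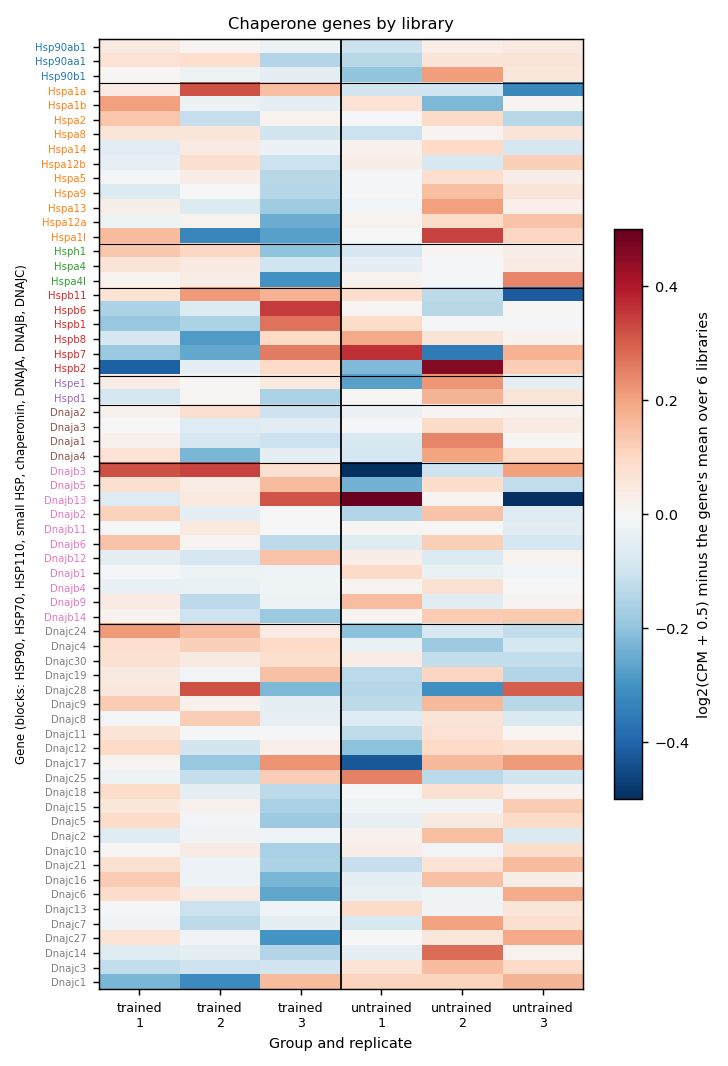
Deviation of log2(CPM + 0.5) from each gene's mean over 6 libraries, for the 65 chaperone genes tested (rows, in blocks by class) in trained and untrained libraries (columns). Trained replicate 3 is the lowest library in 23 rows, and untrained replicate 2 the highest in 22.

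Some cell type markers were also extreme in trained replicate 3 and others were not. The 7 neuron markers, all detected, summed to 7341, 7291 and 5995 CPM in trained replicates, against 6616, 7490 and 7636 CPM in untrained replicates, so the lowest library was again trained replicate 3, while the highest was untrained replicate 3 and not untrained replicate 2. The 7 astrocyte markers summed to 8391, 7403 and 9403 CPM in trained replicates, against 8897, 8980 and 8553 CPM in untrained replicates, with trained replicate 3 highest. The sum of the 8 small HSP genes was also highest there, at 205.3, 199.9 and 264.8 CPM in trained replicates, against 246.9, 227.7 and 226.3 CPM in untrained replicates. Hspb1 alone gave 143 CPM of the 264.8 CPM. Gene by gene, trained replicate 3 was highest in 2 of the 6 small HSP genes tested, and untrained replicate 1 in 2 as well. The 7 microglia markers summed to 579.4, 612.6 and 901 CPM in trained replicates, against 844.2, 765.8 and 777 CPM in untrained replicates, again highest in trained replicate 3. The 6 ependyma and cilia markers were likewise highest in trained replicate 3. They summed to 69.7, 62.13 and 77.45 CPM in trained replicates, against 70.68, 71.37 and 73.1 CPM in untrained replicates. The sets given next did not single out that library. The 6 smooth muscle and pericyte markers summed to 185.9, 250.7 and 226.7 CPM in trained replicates, against 304.8, 246.4 and 222.4 CPM in untrained replicates, and the 6 endothelium markers to 373.9, 435.1 and 402.5 CPM in trained replicates, against 523, 457.5 and 441.4 CPM in untrained replicates. The 6 skeletal muscle markers summed to 10.03, 9.017 and 7.696 CPM in trained replicates, against 9.286, 4.446 and 3.003 CPM in untrained replicates. Oligodendrocyte markers summed to 42440, 37900 and 37790 CPM in trained replicates, against 33410, 37100 and 38500 CPM in untrained replicates, lowest in untrained replicate 1. The part of cell composition in the chaperone values was not tested, and in bulk tissue fewer cells of a type and less RNA per cell cannot be told apart. Without trained replicate 3 the median log2 fold change of the members was 0.0063, and 0 members passed the test.

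**Figure D5:**
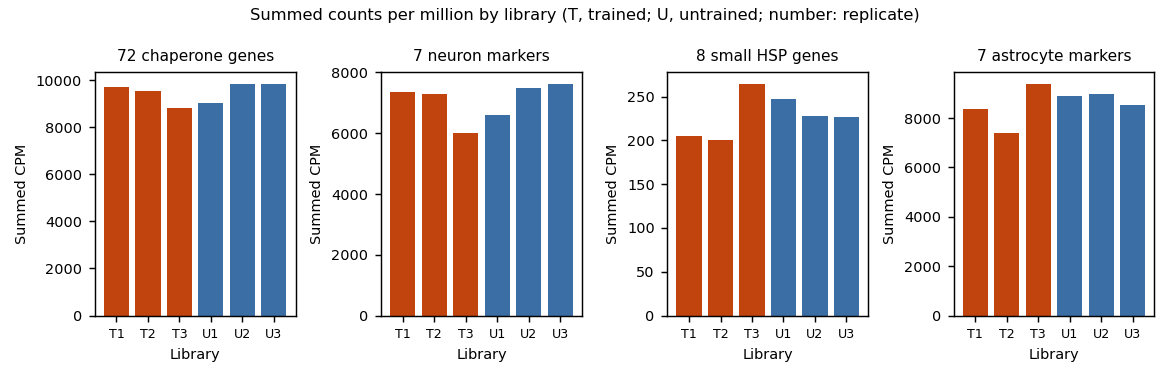
Summed scaled counts (CPM, bars from 0) in each trained (T) and untrained (U) library for the 72 chaperone genes, 7 neuron markers, 8 small HSP genes and 7 astrocyte markers. Trained replicate 3 is lowest for the chaperone sum (8832 CPM) and the neuron sum (5995 CPM), and highest for small HSPs (264.8 CPM) and astrocyte markers (9403 CPM).

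Other features of these libraries frame the comparison. Total counts ranged from 15814104 to 26092014 in trained and from 15947347 to 18081949 in untrained libraries. Markers of spinal cord cells (oligodendrocytes, astrocytes, neurons and microglia) were all detected. Schwann cell markers summed to 127.7, 1269 and 716.3 CPM in trained replicates, against 1032, 1154 and 749.5 CPM in untrained replicates. Neutrophil markers summed to 30.59, 64.29 and 55.55 CPM in trained replicates, against 22.12, 18.8 and 14.57 CPM in untrained replicates. Red blood cell markers summed to 61.07, 144.6 and 143.4 CPM in trained replicates, against 67.84, 65.01 and 36.61 CPM in untrained replicates. The 12 early-response genes, which cells switch on within minutes of a stimulus or of tissue handling, summed to 285.5, 279.7 and 330.2 CPM in trained replicates, against 546.7, 443.7 and 471.8 CPM in untrained replicates. Of these 12, 3 passed the edgeR test, all lower in trained cord, against 0.0532% of all genes tested called lower. Among them were Dusp1 (log2 fold change -1.43 ± 0.11) and Btg2 (-1.38 ± 0.11, edgeR adjusted p = 0.000149 for both). None of the heat-inducible chaperones passed. Because the lists were chosen with earlier results of these data known, their counts cannot be set against each other. Whether the differences in total counts, markers and early-response genes contributed to the chaperone values was not tested.

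Partners of the chaperones gave 0 edgeR calls too, with 2 cochaperones (Hspbp1 and Fkbp5), 0 heat shock factor genes and 0 TRiC genes at an unadjusted p below 0.05, against 10.0% of all genes. Of 5 genes for heat shock factors and their binding protein, Hsf1, the main activator of the heat shock response, named here outside the rule for its role, had a log2 fold change of 0.089 ± 0.11 (edgeR adjusted p = 0.826), Hsf2 -0.16 ± 0.10 and Hsbp1 0.090 ± 0.075 (edgeR adjusted p = 0.616 and 0.728). Among 27 cochaperones, 6 lay higher and 1 lower without overlap between groups, against 8.13% higher and 8.69% lower of all genes tested. Hspbp1, a nucleotide exchange factor of HSP70, had 77.8, 79.2 and 69.5 CPM in trained replicates, against 65.3, 60.4 and 62.7 CPM in untrained replicates (log2 fold change 0.27 ± 0.075, edgeR adjusted p = 0.272). Fkbp5, an HSP90 cochaperone induced by glucocorticoids, had 25.4, 30.02 and 26.9 CPM in trained replicates, against 33.4, 33.2 and 31.3 CPM in untrained replicates (-0.25 ± 0.091, edgeR adjusted p = 0.380). Of 8 genes of the cytosolic chaperonin TRiC, 0 were called, at a median of -0.0010, with Cct7 at 0.068 ± 0.075 and Cct3 at 0.046 ± 0.070.

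Heat shock proteins that carry other names and the unfolded protein response also gave 0 edgeR calls, with 0 of 7 and 4 of 18 genes at an unadjusted p below 0.05, against 10.0% of all genes. Cryab, the small heat shock protein alpha B-crystallin, stood at 742 TPM, above Hspb1, with a log2 fold change of 0.14 ± 0.085 (edgeR adjusted p = 0.601). Trap1, the mitochondrial HSP90, gave 0.00075 ± 0.077 and Hyou1, the ER HSP110, -0.026 ± 0.071. Sec63 and Gak, J-domain proteins of the ER and of clathrin vesicles, lay lower in trained cord without overlap, at -0.14 ± 0.065 and -0.11 ± 0.066 (edgeR adjusted p = 0.502 and 0.583). Of 18 unfolded protein response genes, 12 had a positive and 6 a negative log2 fold change, and 3 lay higher and 3 lower without overlap, against the same 8.13% and 8.69% of all genes. At an unadjusted edgeR p below 0.05, 1 of the 18 lay higher and 3 lower in trained cord, against 4.47% and 5.55% of all genes. Atf4, the transcription factor of the PERK branch, had 124, 121 and 118 CPM in trained replicates, against 108, 105 and 106 CPM in untrained replicates (0.18 ± 0.065, edgeR adjusted p = 0.373). Atf6, the ER stress sensor whose cleaved form binds ER stress elements, had 46.1, 44.2 and 45.1 CPM in trained replicates, against 51.0, 51.2 and 57.3 CPM in untrained replicates (-0.23 ± 0.076, edgeR adjusted p = 0.346). These 2 regulators thus lay on opposite sides without overlap, and neither passed the test.

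The 7 members too low to test were Dnajb7, Dnajb8, Dnajc22, Dnajc5b, Dnajc5g, Hspb3 and Hspb9. Dnajc5g had 0 counts in all 6 libraries. The highest value among the others was 0.437 CPM, for Hspb9 in untrained replicate 1.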

How the data were processed

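RNA-seq of injured mouse spinal cord was analysed in 3 trained and 3 untrained libraries, grouped by their labels. The deposited table holds raw counts per gene (whole numbers), with a gene length and positions. What aligned and counted the reads, and with which strand setting, is not given in the sources used here. Bowtie 0.12.2, mm8 and mm9 are listed, per the submitters' processing notes, with no role for any of them, while the positions of 69 of the 72 members equal those of GENCODE M21 on GRCm38. Strand use is unknown and 38 members overlap another gene, so reads of overlapping genes may not have been told apart.

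The test was edgeR's quasi-likelihood F test (version 4.0.16, run under R version 4.3.3, with TMM scaling, expression filter by group, robust fit, group as the only term). P-values were adjusted by Benjamini-Hochberg over the 16909 genes tested, with a threshold of 0.05. The SE was calculated back from the test, as the absolute log2 fold change divided by the square root of the F statistic. The 95% intervals used this SE and a t quantile. CPM used the scaled library totals. TPM used the deposited gene lengths. The floor of 3 counts covers counting error only. Alternatives were DESeq2 1.42.0, limma-voom (limma 3.58.1), other scalings, filters and thresholds, a replicate block and leaving out each library. The procedure was tested on simulated data.

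The members and lists were chosen with earlier results of these data known. Genes were named if past the test, if without overlap at an unadjusted p below 0.05, if among the 2 highest of a class, or if on a list of heat-inducible, ER or constitutive members. For other lists the 2 genes with the smallest p were named, and Cryab, Trap1 and Hyou1. Shared sequence was counted as 150-base windows of GENCODE M21 transcripts. Promoters came from RefSeq.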

Additional observations from a re-analysis of the deposited data

How the results depend on the processing

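No chaperone gene passed the test under any alternative run (RLE and upper-quartile scaling, DESeq2, limma-voom, no filter, a replicate block, a minimum of 1 CPM in 3 libraries, an adjusted p below 0.10, and leaving out each library). The smallest adjusted p of a member was 0.0852, for Dnajc1 without trained replicate 3. Dnajc1 had 18.1, 17.0 and 23.8 CPM in trained replicates, against 23.1, 23.1 and 24.0 CPM in untrained replicates, with overlap only at trained replicate 3. With all 6 libraries its log2 fold change was -0.25 ± 0.12 (edgeR adjusted p = 0.518). Over all genes, where 10 passed, DESeq2 called 88, edgeR without the filter 276, with the replicate block 5 and at an adjusted p below 0.10 18. Leaving out 1 library gave 4 (without trained replicate 2) to 221 (without trained replicate 3). The labels do not say that the replicate numbers pair samples, so they were not taken to do so. Same-numbered libraries deviated from their group means with correlations of -0.182, -0.0906 and -0.126, and the other pairs with -0.00388 to 0.128. Deviations from a mean of 3 libraries depend on each other, so these values cannot settle pairing. The block called 0 members.

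Leaving out 1 library moved the median log2 fold change of all members between -0.0487 and 0.00628, of DNAJA genes between -0.137 and -0.0386, of DNAJB genes between -0.0179 and 0.0363, of DNAJC genes between -0.0945 and 0.0252, of HSP110 genes between -0.0263 and 0.0793, of HSP70 genes between -0.0989 and -0.00254, of HSP90 genes between -0.0487 and 0.057, of the chaperonin pair between -0.121 and 0.0383 and of small HSPs between -0.217 and 0.0198. The small HSP median was -0.0374 with a minimum of 1 CPM in 3 libraries. The DNAJB median was 0.0442 with upper-quartile scaling. Dnaja2 turned positive under RLE (0.0032), upper-quartile scaling (0.024), DESeq2 (0.00333) and no filter (0.00926). Leaving out 1 library changed the sign of 12 named genes, none past the test: Dnaja2 (-0.0401 to 0.0687), Dnajb1 (-0.0593 to 0.016), Dnajb2 (-0.0095 to 0.129), Dnajc5 (-0.13 to 0.0252), Hsp90aa1 (-0.0487 to 0.0969), Hsp90ab1 (-0.0198 to 0.057), Hsp90b1 (-0.148 to 0.0438), Hspa4 (-0.0218 to 0.0793), Hspa8 (-0.0171 to 0.0902), Hspb1 (-0.182 to 0.0463), Hspe1 (-0.0552 to 0.188) and Hsph1 (-0.0263 to 0.154). Other genes kept their sign, but their smallest and largest changes differed by over 1.5 times: Dnaja1 (-0.175 to -0.0196), Dnajb9 (-0.125 to -0.00611), Dnajb11 (0.00735 to 0.052), Dnajb14 (-0.236 to -0.112), Dnajc27 (-0.235 to -0.0366, the smaller change without trained replicate 3), Hspa1a (0.278 to 0.427), Hspa1b (0.00287 to 0.185), Hspa5 (-0.107 to -0.00427), Hspa9 (-0.175 to -0.0854), Hspb8 (-0.252 to -0.083) and Hspd1 (-0.203 to -0.101). The causes were not tested. Dnajc3 stayed between -0.226 and -0.19 and Dnajc24 between 0.246 and 0.354 under the alternatives run, with adjusted p-values from 0.17 to 0.7 and from 0.248 to 0.779. Hspa1a ran from 0.278 to 0.427 under the same alternatives, with adjusted p-values from 0.349 to 0.778. The intervals of Hspb2, Hspb7 and Dnajb3, at 1.73 CPM or less in every library, reached past 2-fold.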

Other observations

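Of the 14 pseudogene rows with chaperone names, 2 had enough counts to be tested. Hspd1-ps3, a processed copy of Hspd1, had 11.1, 5.74 and 5.28 CPM in trained replicates, against 3.33, 2.88 and 6.20 CPM in untrained replicates. Its log2 fold change was 0.86 ± 0.40 (edgeR adjusted p = 0.521), trained replicate 1 was the highest library, and the groups overlapped. Of the 150-base windows of Hspd1, 16.08% are shared with other genes. Gm12346, which shares sequence with Hsp90aa1, had 13.4, 11.7 and 8.75 CPM in trained replicates, against 10.2, 13.7 and 13.7 CPM in untrained replicates, and like Hsp90aa1 was lowest in trained replicate 3.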
